A study of Homo sapiens with 2 samples.

Results

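The caveolins CAV1 and CAV2 and the cavins CAVIN1, CAVIN2 and CAVIN3 were followed across the cell lines of a pooled single-cell long-read RNA library. The members were chosen by gene name in the deposited annotation, where they made up 5 of 57110 gene entries (17806 of them with a count above 0) and 13 of 99493 listed transcripts. The pool held IGROV1, SK-OV-3 and COV504, 3 established human ovarian cancer lines, which per the labels were detached with trypsin and mixed in equal parts with no treatment. It gave 1 nanopore PromethION library, whose reads span whole cDNA molecules, and 1 Illumina library, which contributes its cell barcodes alone. All 2462 barcodes were shared by both lists. Each line therefore came from 1 library, no value has a replicate, and every interval given is a 95% interval that covers counting error only.

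The lines were separated by marker genes, because no deposited label ties a barcode to a line. A barcode with at least 1000 counts was given to a line when at least 75% of its counts of the marker genes came from that line's markers. ERBB2, NNMT, TSPAN1 and DHRS2 defined 648 SK-OV-3-like cells, RARRES2 and TMEM100 defined 473 cells called RARRES2-high, and FOLR1, CLDN3, DEFB1 and CXCL14 defined 765 cells called FOLR1-high. Within the FOLR1-high line, 261 cells had a CXCL14 count, 299 had DEFB1 or CD44 but no CXCL14, and 205 had none of the 3. In total 1886 barcodes were given to a line, 243 of at least 1000 counts were not, and 333 fell below 1000 counts. These genes and lines were selected on results of the same matrix, so the levels below are a description and no difference was tested.

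Caveolae are flask-shaped pits of the plasma membrane. Caveolins are integral membrane proteins whose oligomers form the caveolar coat together with cavins, which are recruited from the cytosol and shape the membrane. Caveolae buffer membrane tension, take part in lipid and signalling traffic, and are abundant in adipocytes, endothelium, muscle and fibroblasts, while their abundance in carcinoma cells varies widely. CAV1 is required for caveolae outside striated muscle, and CAV2 joins CAV1 in mixed oligomers.

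Apart from ENST00000393470 (167 codons, at most 0.0287% of CAV1 counts per line), the CAV1 transcripts have coding sequences of 178 or 147 amino acids. The starts of these coding sequences distinguish the main transcripts measured here. The longer one, known as the alpha form, is encoded by ENST00000341049 (chr7:116524785-116561176, plus strand, GRCh38) and opens in its first exon at position 116525063. The shorter, the beta form, is encoded by ENST00000393467 (chr7:116526293-116561176) and opens at position 116526588, in an exon part shared by both transcripts, so it lacks the first 31 codons of the longer one. The first 30 coding bases of each are shown from GENCODE release 29, with the start codon in capitals, because those of ENST00000341049 fill the coding part of its first exon, which ENST00000393467 lacks.
CAV1 ENST00000341049: ATGtctgggggcaaatacgtagactcggag
CAV1 ENST00000393467: ATGgcagacgagctgagcgagaagcaagtg
CAV2 is encoded 5′ of CAV1 on the same strand, with ENST00000222693 at chr7:116499390-116508541. CAVIN1 lies at chr17:42402452-42423517, CAVIN2 at chr2:191834302-191847255 and CAVIN3 at chr11:6318946-6320647, each on the minus strand.

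The matrix held 13052893 estimated counts, of which the SK-OV-3-like cells had 3442383, the RARRES2-high cells 3377992 and the FOLR1-high cells 4514999. Median counts per cell were 4953, 6262 and 5289. Genes of the ERBB2 amplicon that the rule did not use were highest in the SK-OV-3-like cells, with MIEN1 at 528 CPM, that is, counts scaled to a total of 1000000 per group, against 143 in RARRES2-high and 103 in FOLR1-high cells. CDKN2A, which SK-OV-3 lacks, had 1 count there, but it also had 0 counts in RARRES2-high cells. Neither remaining group was named after a line. Leukocyte, pericyte and endothelial markers were near 0 (PTPRC at most 1 count, PDGFRB at most 3, VWF at most 3 and PECAM1 at most 8 in any line), except that CDH5 had 103 counts in RARRES2-high cells and the fibroblast collagen COL1A1 had 329 in SK-OV-3-like cells. Their part in the caveolin levels was not tested.

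CAV1 was detected in every group and spanned the widest range of the 5 members. It stood at 4129.7 CPM (4061–4199) in RARRES2-high cells, 1199 CPM (1163–1236) in SK-OV-3-like cells and 118 CPM (109–129) in FOLR1-high cells. The intervals did not overlap, so the order of the lines was resolved beyond counting error. The RARRES2-high level was 3.44-fold (3.33–3.57) the SK-OV-3-like level and 34.9-fold (32.0–38.1) the FOLR1-high level. SK-OV-3-like cells were 10.1-fold (9.24–11.1) above FOLR1-high cells.

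CAV2 had the same order with smaller steps. Its level was 525 CPM (501–550) in RARRES2-high cells, 257 CPM (240–274) in SK-OV-3-like cells and 56.9 CPM (50.2–64.3) in FOLR1-high cells. RARRES2-high cells were 2.05-fold (1.89–2.22) above SK-OV-3-like cells and 9.23-fold (8.09–10.6) above FOLR1-high cells, and SK-OV-3-like cells were 4.51-fold (3.92–5.20) above FOLR1-high cells. CAV1 and CAV2 therefore did not keep 1 ratio. For each CAV2 count there were 7.86 CAV1 counts (7.48–8.26) in RARRES2-high cells, 4.67 (4.35–5.03) in SK-OV-3-like cells and 2.08 (1.79–2.43) in FOLR1-high cells. These are ratios of read counts not scaled by transcript length, so they compare lines and not the amounts of the proteins.

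**Figure D1:**
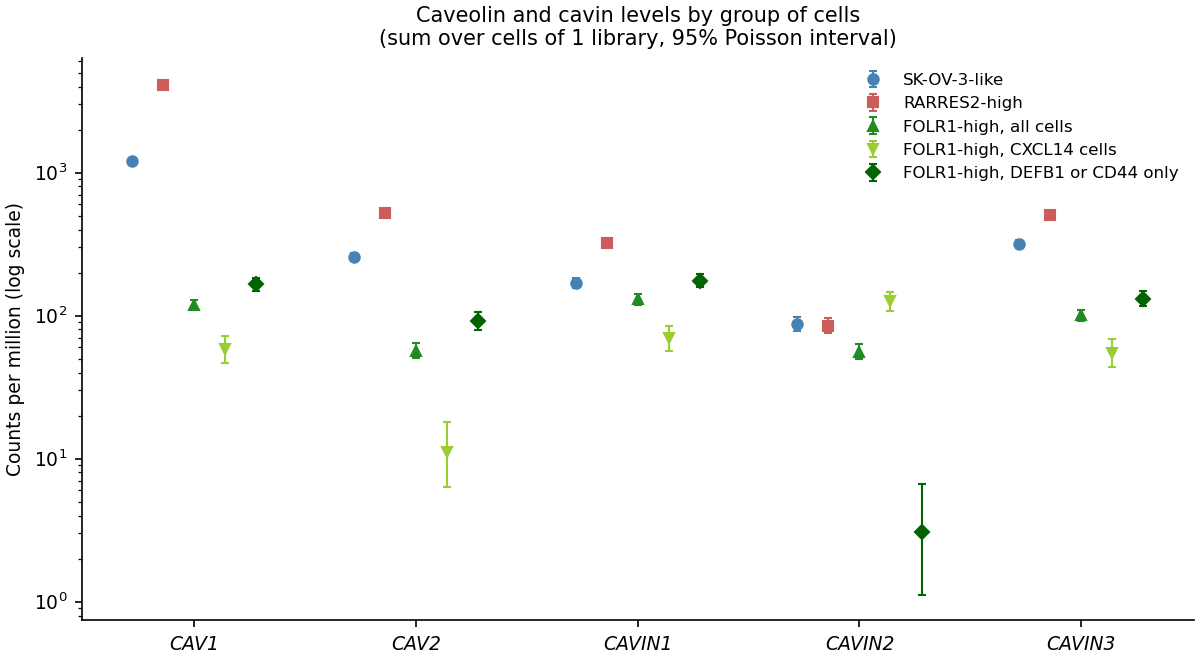
Level of each caveolin and cavin (CPM on a log axis) in the 3 lines and in the CXCL14 and DEFB1-or-CD44-only cells of the FOLR1-high line. Points are sums over the cells of 1 library and bars are 95% Poisson intervals. CAV1, CAV2, CAVIN1 and CAVIN3 are highest in RARRES2-high cells, and CAVIN2 stands at 126 in CXCL14 cells and at 3.05 in DEFB1-or-CD44-only cells.

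The CAV1 levels of RARRES2-high and SK-OV-3-like cells came from most of their cells. To compare cells of unequal depth, each cell was thinned to 2000 counts, which left 606, 443 and 733 cells. A CAV1 count was then present in 95.7% (93.4–97.4) of RARRES2-high cells, 82.7% (79.4–85.6) of SK-OV-3-like cells and 13.8% (11.4–16.5) of FOLR1-high cells. The median cell had 7, 2 and 0 CAV1 counts, and the highest cell 31, 17 and 4. Without thinning, the shares of cells with a count were 97.7%, 94.0% and 29.3%. CAV2 was present at 2000 counts in 62.8%, 41.4% and 8.32% of cells.

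**Figure D2:**
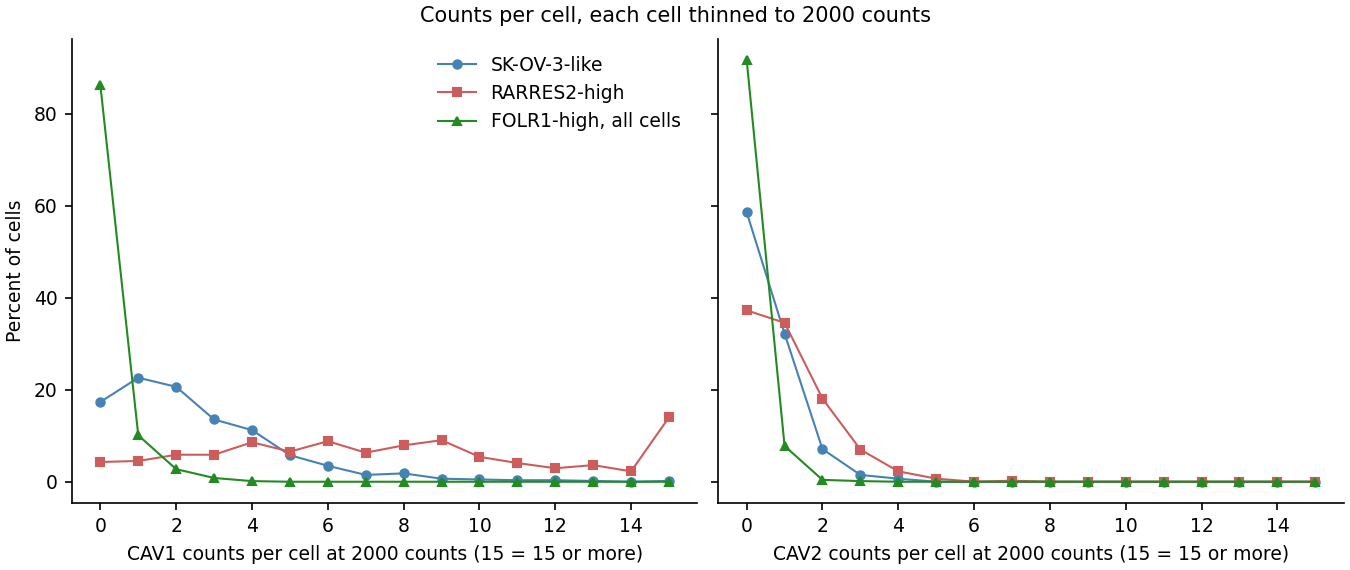
Distribution of CAV1 (left) and CAV2 (right) counts per cell after thinning each cell to 2000 counts; the vertical axis is the percent of cells of a line and the last point pools 15 or more counts. For CAV1 the median is 7 in RARRES2-high, 2 in SK-OV-3-like and 0 in FOLR1-high cells, while for CAV2 most cells of every line hold 0 or 1 count.

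Both caveolins were found together in 61.6% of RARRES2-high cells at 2000 counts, in 35.3% of SK-OV-3-like cells and in 3.0% of FOLR1-high cells, and without thinning in 86.9%, 67.4% and 13.5%. At 2000 counts the product of the separate shares gives 60.1%, 34.2% and 1.15%. Across cells within a line, Spearman's rho between CAV1 and CAV2 counts was 0.26 over 443 RARRES2-high cells, 0.05 over 606 SK-OV-3-like cells and 0.20 over 733 FOLR1-high cells. The last value joins states of unlike caveolin levels; within them rho was 0.06 over 294 cells with DEFB1 or CD44 but no CXCL14 (both caveolins in 3.06%, against 2.35% from the product) and 0.32 over 249 CXCL14 cells, of which 2 had both. These cells share a library and a fixed depth, counts are sparse, and the values are given as a description.

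Among the cavins, CAVIN1 and CAVIN3 followed the order of the caveolins with shorter steps, and CAVIN2 did not. CAVIN1, also called PTRF, is the cavin without which caveolae do not form. It stood at 320.3 CPM (302–340.0) in RARRES2-high, 169 CPM (156–184) in SK-OV-3-like and 130 CPM (119–141) in FOLR1-high cells. The SK-OV-3-like to FOLR1-high ratio of CAVIN1, 1.30 (1.16–1.47), was 1.01 when mitochondrial and ribosomal protein genes were left out of the totals. FOLR1-high cells had 40.5% of the RARRES2-high level of CAVIN1, against 2.87% of the level of CAV1.

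CAVIN3, a cavin that links caveolae to signalling proteins, stood at 507 CPM (483–531) in RARRES2-high, 317 CPM (298–336) in SK-OV-3-like and 100.3 CPM (91.3–110.0) in FOLR1-high cells. CAVIN2, also called SDPR and known for membrane curvature, stood at 88.0 CPM (78.4–98.5) in SK-OV-3-like, 85.3 CPM (75.7–95.7) in RARRES2-high and 56.0 CPM (49.3–63.4) in FOLR1-high cells. The SK-OV-3-like and RARRES2-high levels of CAVIN2 were not separated by counting error, with a ratio of 0.969 (0.821–1.14). It was the only member for which RARRES2-high cells were not above SK-OV-3-like cells beyond that error. The share of all genes above it by that bar was not counted, and by the 2-fold limit used below only CAV1 and CAV2 were higher. CAVIN2 made up 15.3% of the cavin counts in SK-OV-3-like, 9.34% in RARRES2-high and 19.6% in FOLR1-high cells.

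The FOLR1-high average joined cells with opposite cavin make-ups. In the 261 cells with CXCL14, a chemokine, CAVIN2 had 181 counts, or 126 CPM (108–146). In the 299 cells with DEFB1, a defensin, or CD44, a hyaluronan receptor, and without CXCL14, it had 6 counts, or 3.05 CPM (1.12–6.64). The CXCL14 cells were 41.3-fold (18.6–114) higher, 24.8-fold with every cell thinned to 2000 counts and 60.6-fold among cells at or above the line's median depth. CAVIN2 was counted in 101 of the 261 cells (38.7%) and in 6 of the 299 (2.01%), and at 2000 counts in 20.1% against 1.02% of cells.

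The other members had the reverse order between these cells. CAV2 stood at 92.1 CPM (79.1–106) in DEFB1-or-CD44-only cells and at 11.1 CPM (6.36–18.1) in CXCL14 cells, a ratio of 8.27 (4.95–14.8) that was 5.45 among the deeper cells of the line and 11.6 with every cell thinned to 2000 counts. CAV1 stood at 165 CPM (148–184) against 58.5 CPM (46.6–72.4), a ratio of 2.83 (2.22–3.64) that was 4.84 after the same thinning. CAVIN1 stood at 175 CPM (157–195) against 69.6 CPM (56.6–84.6), a ratio of 2.52 (2.01–3.18), and CAVIN3 at 132 CPM (116–149) against 55.0 CPM (43.5–68.5), a ratio of 2.40 (1.86–3.12) that was 3.61 at 2000 counts. No interval of a member overlapped between these groups of cells, but the share of all genes for which this holds was not counted. Of the FOLR1-high cells, 139 had a CAVIN2 count and 169 a CAV2 count, and 7 had both, which is 5.04% of the former and 4.14% of the latter. CAV2 was counted in 11 of the 261 CXCL14 cells and 113 of the 299 DEFB1-or-CD44-only cells, the reverse order of CAVIN2. The overlap was not set against the number expected from these differences.

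**Figure D3:**
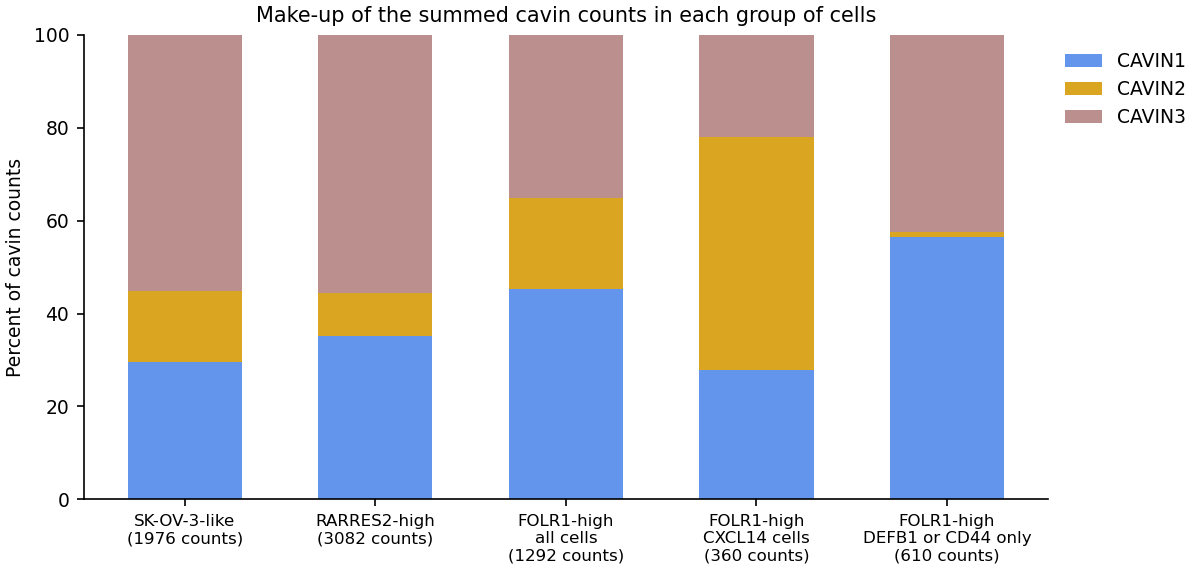
Share of each cavin (percent) in the summed cavin counts of each line and of the CXCL14 and DEFB1-or-CD44-only cells of the FOLR1-high line; the number of counts stands under each bar. CAVIN2 takes 50.3% in CXCL14 cells and 0.984% in DEFB1-or-CD44-only cells, and between 9.34% and 19.6% in the 3 whole lines.

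The low caveolin counts of the FOLR1-high line were set beside RGCC and other genes that were highest in RARRES2-high cells, since free RNA and mixed droplets give counts in cells that do not express a gene. RGCC, which the rule did not use, had 237 counts in RARRES2-high cells and 0 in FOLR1-high cells, which allows up to 0.947% of its RARRES2-high level. CAV1 in the FOLR1-high line was at 2.87% and CAV2 at 10.8% of theirs, both above the limit set by this gene. RGCC also had 0 counts in SK-OV-3-like cells, where CAV1 and CAV2 stood at 1199 and 257 CPM. Limits from RGCC therefore do not cover free RNA or mixed droplets from SK-OV-3-like cells, and background from that source was not tested. In CXCL14 cells alone the 0 counts of RGCC allow up to 2.98%, and CAV1 at 1.42% and CAV2 at 2.12% lay below it, so their counts in CXCL14 cells are not told apart from background by this measure. In DEFB1-or-CD44-only cells the limit was 2.17%, with CAV1 at 4.0% and CAV2 at 17.5%. The others, which the rule did not use either, had larger fractions of that level in FOLR1-high cells, 0.0541 for CDH1 (2.44 against 45.0 CPM), 0.0998 for ESRP1 (4 against 30 counts) and 0.123 for CDH5 (3.77 against 30.5 CPM), beside 0.0287 for CAV1 and 0.108 for CAV2. Whether FOLR1-high cells express these genes is not known from the files, so the limit rests on RGCC alone, and the part of background in the FOLR1-high counts was not tested. The 84 CAV1 counts of CXCL14 cells were also uneven, with 22 in 1 cell and 14 in another 2 cells.

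Near the edge of the rule the CAV1 level differed most for FOLR1-high cells. Cells of this group just inside it, with 75 to 85% of marker counts, had CAV1 at 274 CPM over 38 cells, and those just outside, at 65 to 75%, had 657 CPM over 15 cells. For RARRES2-high cells the values were 3800.2 CPM over 131 cells and 3775 CPM over 57 cells, and for SK-OV-3-like cells 1285 CPM over 54 cells and 1299 CPM over 25 cells. With a share of at least 90% required, the RARRES2-high to FOLR1-high ratio of CAV1 was 40.4.

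The members were next set against all genes. A gene counted as past the limit when its ratio of CPM, after 10 CPM were added to both, was at least 2, among genes with at least 10 CPM in either group. RARRES2-high cells were past it over SK-OV-3-like cells for CAV1 and CAV2, 2 of 5 members, where 8.94% of 9116 genes were; none of the members was past it in the other direction, where 11.6% of genes were. RARRES2-high cells were past it over FOLR1-high cells for 4 of 5 members, all but CAVIN2 (15.3% of 8654 genes; 7.64% in the other direction, with no member).

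SK-OV-3-like cells were past it over FOLR1-high cells for CAV1, CAV2 and CAVIN3, 3 of 5 (15% of 8869 genes; 5.75% in the other direction, with no member). DEFB1-or-CD44-only cells were past it over CXCL14 cells for 4 of 5 members, where 3.05% of 7758 genes were, and CXCL14 cells for CAVIN2 alone, where 1.73% were. The median ratio over the members was 1.84, 4.68, 2.96 and 2.33 in these comparisons, and over all genes 0.890, 1.13, 1.28 and 1.05. The line comparisons share cells, and the rule's choice of genes used these data, so nothing further is read from the shares.

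**Figure D4:**
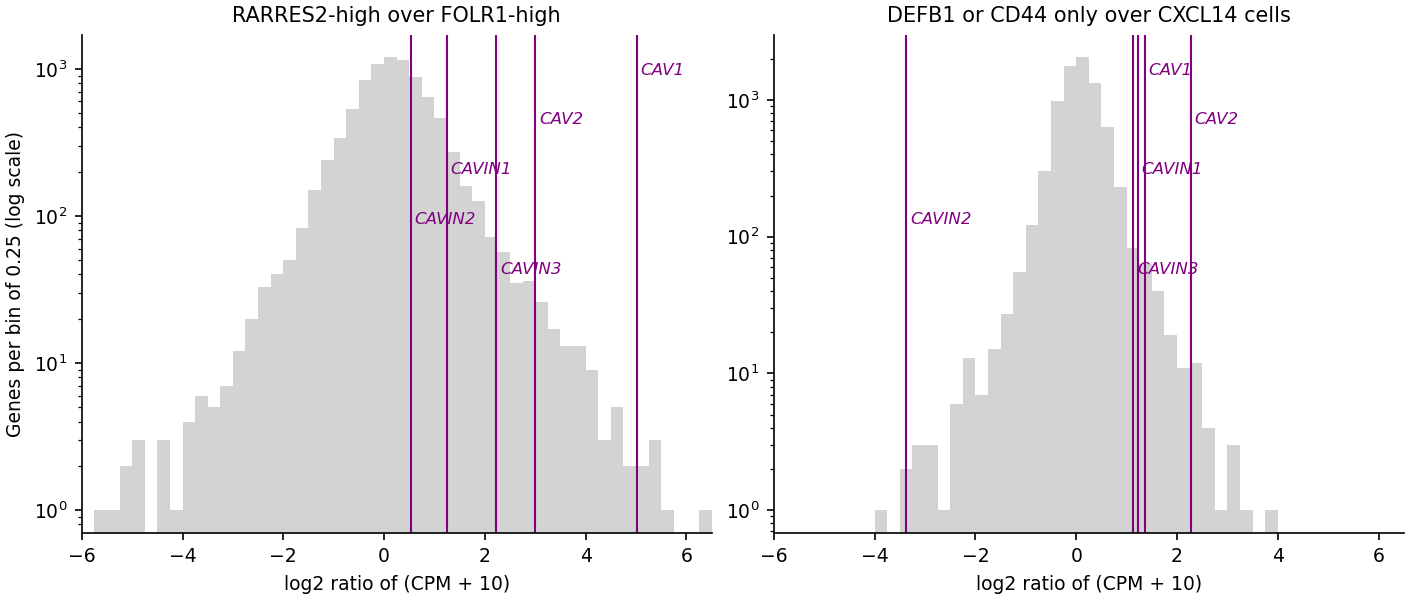
Histogram of the log2 ratio of CPM plus 10 over all genes with at least 10 CPM in either group (bins of 0.25, log count axis), with the 5 members as lines, for RARRES2-high over FOLR1-high cells (left) and DEFB1-or-CD44-only over CXCL14 cells (right). CAV1 lies near the right edge on the left panel, and CAVIN2 lies near the left edge on the right panel, opposite to the other 4 members.

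Over all cells, the transcript shares of CAV1 differed between lines. ENST00000341049, the 178-residue form, took 65.7% (64.3–67.2) of CAV1 counts in SK-OV-3-like, 60% (59.2–60.8) in RARRES2-high and 38.2% (34.0–42.4) in FOLR1-high cells. Its share was 60.3%, 62.7% and 31.1% in cells with 3 to 5 CAV1 counts, and 41.3%, 34.6% and 34.2% in cells with a single count, where the RARRES2-high value rests on 13 counts. ENST00000393467, 1 of 4 listed transcripts that encode the 147-residue form, took 27.7%, 32.0% and 45.7%. CAV2 was almost wholly ENST00000222693, at 99.0%, 99.0% and 99.2%, CAVIN3 was almost wholly ENST00000303927, at 100% in SK-OV-3-like and 99.9% in both other lines, and CAVIN1 and CAVIN2 had 1 listed transcript each.

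The 6 listed CAV1 transcripts were then grouped by where they begin, a grouping made after their values were seen. ENST00000393467 and ENST00000393468 begin downstream, a few bases apart, and took 28.8% (27.4–30.2) of CAV1 counts in SK-OV-3-like, 34.2% (33.4–35.0) in RARRES2-high and 52.5% (48.2–56.8) in FOLR1-high cells. Within the FOLR1-high line they took 60.2% (49.5–71.2) in CXCL14 and 48.9% (43.4–54.5) in DEFB1-or-CD44-only cells, and these intervals overlapped. FOLR1-high cells had the largest downstream share, and their interval did not meet those of the other lines.

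The shares varied with the number of CAV1 counts in a cell, for a reason that was not tested, and they were compared at equal CAV1 counts per cell. At 3 to 5 counts the downstream share was 61.1% (53.5–67.8) over 51 FOLR1-high cells, 32.8% (29.4–36.3) over 195 SK-OV-3-like cells and 21.3% (13.8–30.3) over 26 RARRES2-high cells. At 1 count it was 51.2%, 38.5% and 42.3%, and the intervals overlapped. At 11 or more counts it was 34.4% over 5 FOLR1-high cells, 27.6% over 116 SK-OV-3-like cells and 34.1% over 363 RARRES2-high cells. The FOLR1-high share was thus separated from both other lines by counting error at 3 to 5 counts, from SK-OV-3-like cells alone at 2 and at 6 to 10 counts, and from neither at 1 or at 11 or more counts.

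Cells with a single CAV1 count, at least 0.99 of it given to 1 transcript, hold almost no read shared between transcripts. Among FOLR1-high cells 40 such counts were ENST00000393467, 11 were ENST00000393468 and 33 were ENST00000341049. Among SK-OV-3-like cells 18 were ENST00000393467, 0 were ENST00000393468 and 20 were ENST00000341049, and among RARRES2-high cells these numbers were 3, 1 and 3. The downstream share of such counts was 59.3% (48.2–69.8) in FOLR1-high, 46.2% (30.1–62.8) in SK-OV-3-like and 57.1% (18.4–90.1) in RARRES2-high cells, so these counts did not separate the lines. In CXCL14 cells 18 of 20 such counts (90%, 68.3–98.8) were downstream, and in DEFB1-or-CD44-only cells 23 of 46 (50%, 34.9–65.1) were. The order of SK-OV-3-like and RARRES2-high cells in the downstream share turned with the counts per cell and is not given as a difference.

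**Figure D5:**
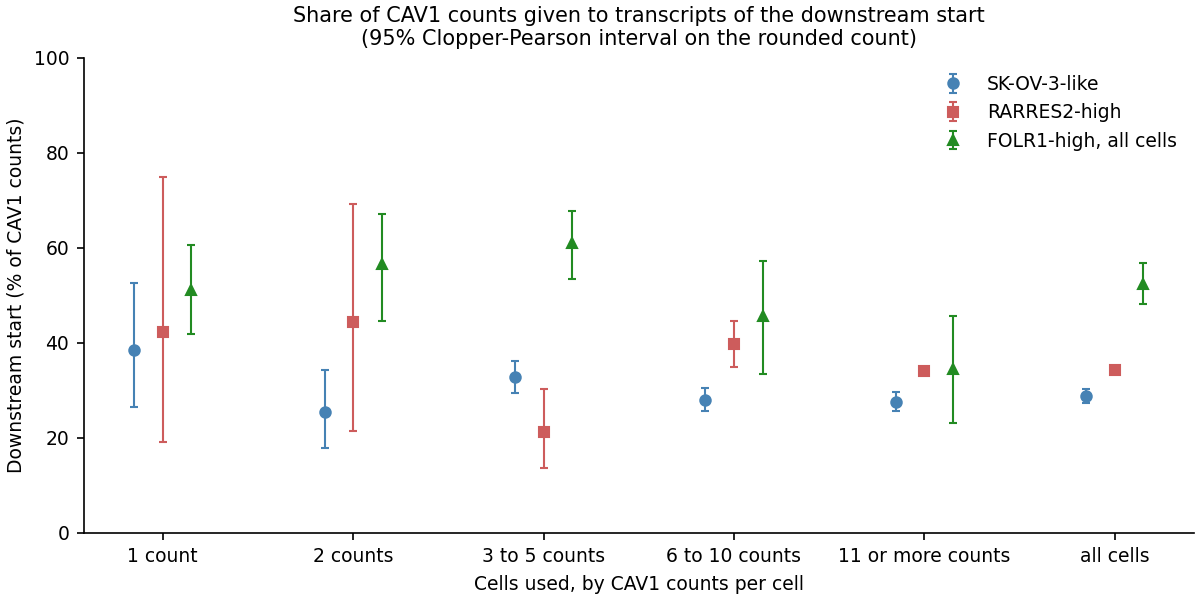
Percent of CAV1 counts given to the transcripts of the downstream start, by CAV1 counts per cell and over all cells, in the 3 lines; bars are 95% Clopper-Pearson intervals on the rounded count. FOLR1-high cells stand highest up to 6 to 10 counts, with 61.1% at 3 to 5 counts, and meet RARRES2-high cells at 11 or more counts, with 34.4% against 34.1%.

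Across genes with at least 2 transcripts and 50 counts in both groups, each gene's largest shift in transcript share was set beside that of CAV1. It reached 10 percentage points in 12.8% of 4245 genes between RARRES2-high and SK-OV-3-like cells, where CAV1 had 5.72 points. It did so in 15.2% of 4120 genes between RARRES2-high and FOLR1-high cells, where CAV1 had 21.8 points, and in 12.1% of 4477 genes between SK-OV-3-like and FOLR1-high cells, where CAV1 had 27.5 points. Between DEFB1-or-CD44-only and CXCL14 cells 7.46% of 2347 genes did, and CAV1 had 14.2 points. That shift was in ENST00000341049, at 27.1% (18.2–38.2) of 84 counts in CXCL14 and 41.3% (35.8–46.8) in DEFB1-or-CD44-only cells, and the intervals overlapped. None of these CAV1 shifts was matched on CAV1 counts per cell. CAV2 and CAVIN3, where they had enough counts, had at most 0.45 points in each of these comparisons.

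The bases before the downstream CAV1 start and before CAVIN2 are shown as the start regions of the transcripts that stood apart in FOLR1-high cells, from RefSeq promoter windows (GRCh38.p14) and only as far as the first listed exon. The CAV1 stretch is chr7:116526112-116526276 on the plus strand, intronic for ENST00000341049, with 23 CpG in 165 bases. The CAVIN2 stretch is chr2:191847256-191847338 on the minus strand, with 1 CpG in 83 bases. Capitals mark the GC box, GGGCGG or its reverse complement.
CAV1 downstream start: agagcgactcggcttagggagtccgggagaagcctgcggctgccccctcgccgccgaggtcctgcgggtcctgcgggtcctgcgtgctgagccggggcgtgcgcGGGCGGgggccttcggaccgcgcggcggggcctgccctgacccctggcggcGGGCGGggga
CAVIN2 start: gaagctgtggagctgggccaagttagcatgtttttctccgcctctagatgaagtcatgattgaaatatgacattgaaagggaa
Over the whole 300-base windows, GC boxes on either strand numbered 2 at the CAV1 downstream start, 3 at the CAV1 upstream start, 6 and 4 at the 2 listed CAV2 starts and 0 at the CAVIN2 start. The CAV2 window with 6 lies within the first exon of ENST00000222693. Of 35116 RefSeq windows of that length, 45.0% held a GC box. GGAATG, the core bound by TEAD factors, was found 1 time in the CAVIN2 window and in 14% of all windows, and TATAAA in none of the caveolin or CAVIN2 windows and in 11.5% of all. A match of letters is a description and shows no binding.

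Of 10 accessory genes of caveolae, 6 had at least 10 CPM in a line, and EHD1, EHD4 and PACSIN2 had the line order of the caveolins by their levels while EHD2, PACSIN3 and DNM2 did not. For EHD1 each of the 3 ratios between lines was separated from 1 by counting error, with SK-OV-3-like over FOLR1-high cells at 1.42 (1.10–1.82). For EHD4 that ratio, 1.17 (0.932–1.48), was not. For PACSIN2 no pair of lines was separated, with RARRES2-high cells at 1.15-fold (0.910–1.46) the SK-OV-3-like and 1.19-fold (0.953–1.49) the FOLR1-high level. EHD2, an ATPase at the caveolar neck, was highest in SK-OV-3-like cells, at 80.2 CPM, against 33.7 in RARRES2-high and 3.99 in FOLR1-high cells. EHD4, a relative of EHD2, was highest in RARRES2-high cells, at 154 CPM, against 42.1 in SK-OV-3-like and 35.9 in FOLR1-high cells. DNM2, the dynamin that cuts membrane necks, stood at 82.8 CPM in SK-OV-3-like, 18.4 in RARRES2-high and 27.9 in FOLR1-high cells.

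By the limit used for all genes, RARRES2-high over SK-OV-3-like cells had 1 of 6 accessory genes higher and 2 lower, where 8.94% and 11.6% of all genes were. RARRES2-high over FOLR1-high cells had 3 of 6 higher (15.3% of all genes), and SK-OV-3-like over FOLR1-high cells 2 of 6 (15%). Between DEFB1-or-CD44-only and CXCL14 cells 0 of the 5 tested genes were past it (3.05% and 1.73% in the 2 directions). The median ratios were 0.877, 1.85, 1.45 and 1.27, beside 0.890, 1.13, 1.28 and 1.05 over all genes. CAV3 and CAVIN4, the muscle members of both families, had 0 counts and at most 5 counts in a line. Of 6 caveola-associated receptors and enzymes, 3 could be tested between RARRES2-high and SK-OV-3-like cells, with a list median of 0.934. EGFR was past the limit there (8.94% of all genes) but close to it, with a CPM ratio of 2.15 (1.83–2.52). Between RARRES2-high and FOLR1-high cells EGFR was higher and INSR lower, of 3 tested (15.3% and 7.64% of all genes). Of 4 tested, 0 were past the limit between SK-OV-3-like and FOLR1-high cells (15% and 5.75%) or between the states (3.05% and 1.73%). EGFR stood at 147 CPM in RARRES2-high, 68.6 in SK-OV-3-like and 43.4 in FOLR1-high cells. INSR, the insulin receptor, had 1, 27 and 51 counts. The TGF-beta receptors did not have that order, with TGFBR1 at 8.88, 14.2 and 8.64 CPM and TGFBR2 at 31.1, 34.0 and 24.4 CPM.

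Genes of the clathrin coat, the main alternative route of uptake, and the flotillins, which form caveolin-independent membrane domains, were counted in the same way. Of 8 clathrin coat genes 0 were past the limit between RARRES2-high and SK-OV-3-like cells (8.94% and 11.6% of all genes in the 2 directions). Of the 8, 3 were higher and 1 lower in RARRES2-high than in FOLR1-high cells (15.3% and 7.64% of all genes), and 1 was higher in SK-OV-3-like than in FOLR1-high cells (15%), a share near that of all genes. AP2M1, a subunit of the clathrin adaptor, stood at 609 CPM in RARRES2-high, 408 in SK-OV-3-like and 172 in FOLR1-high cells. AP2A2, the gene that was lower, had the reverse order, at 35.2, 56.6 and 81.3 CPM in these lines. CLTA stood at 785, 917 and 824 CPM. None of the 8 was past the limit between the states of the FOLR1-high line (3.05% and 1.73% of all genes). FLOT1 stood at 90.1 CPM in SK-OV-3-like, 70.2 in RARRES2-high and 32.1 in FOLR1-high cells, and was past the limit only between the first and the last of these (15% of all genes). FLOT2 stood at 50.3, 22.8 and 36.1 CPM in the same lines, lowest in RARRES2-high cells, and was past the limit in no comparison.

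By the 2-fold limit, the neighbours of CAV1 and CAV2 on chromosome 7 had their direction in 1 of the line comparisons. TES, MET and CAPZA2 were lower in SK-OV-3-like than in FOLR1-high cells, at 56.1 against 143 CPM, 41.0 against 108 CPM and 74.1 against 218 CPM, where CAV1 was 10.1-fold higher. All 3 tested neighbours were past the limit in that direction, where 5.75% of all genes were. Between RARRES2-high and FOLR1-high cells 0 of 4 neighbours were past it (15.3% and 7.64% of all genes in the 2 directions), with a median ratio of 1.09 against 1.13 over all genes, where CAV1 was 34.9-fold higher. Below the limit, RARRES2-high cells were above FOLR1-high cells beyond counting error for MET, at 1.36-fold (1.20–1.54), and TES, at 1.13-fold (1.00–1.27, with the lower bound just above 1), and below them for CAPZA2, at 0.748-fold (0.673–0.832). RARRES2-high cells exceeded SK-OV-3-like cells, as they did for the caveolins, for 3 of 4, where 8.94% of all genes were past the limit, with a median ratio of 2.32 against 0.890 over all genes and with MET, a receptor kinase, at 147 against 41.0 CPM. TFEC, WNT2, ASZ1 and CFTR had 0 counts in every line.

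The genes most like CAV1 were sought over 4 groups, the SK-OV-3-like cells, the RARRES2-high cells and both states of the FOLR1-high line, by the distance of log2 levels (10 CPM added, each gene centred) among 4124 genes. TFPI2 was nearest (distance 0.79; 157, 510.4, 3.48 and 33.6 CPM in SK-OV-3-like, RARRES2-high, CXCL14 and DEFB1-or-CD44-only cells), before LINC00116, PLP2, FGFBP1 and KRT7. CAV2 ranked 16, CAVIN3 89, CAVIN1 414 and CAVIN2 2874. For CAV2 the nearest were EMP1 (distance 0.55), OCIAD2, PLP2, FOSL1 and TFPI2, and CAVIN3 ranked 17, CAV1 46, CAVIN1 221 and CAVIN2 3783. The 4 groups come from 1 library, and the ranks are a description.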

How the data were processed

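A pool of 3 ovarian cancer lines gave 1 PromethION and 1 Illumina library. The authors deposited estimated counts per transcript and barcode, made with Isosceles per the series' design text; a read can be split between transcripts of 1 gene, and 39.8% of entries were whole to within 1e-06. Cell Ranger 6.0.1 and GRCh38 are named in the submitters' processing notes, without a role. Neither the aligner nor any collapsing of molecular identifiers is stated in the sources read, so PCR copies may be counted and intervals cover counting error only. All 13 member transcripts had the same position in the deposited annotation table as in GENCODE release 29.

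Here the estimated counts were summed per gene, which gave whole numbers to the same tolerance, and scaled to CPM, counts per 1000000 of a group's total. CPM have exact Poisson, ratios exact conditional and shares Clopper-Pearson intervals at 95%; shares of split counts used rounded counts. A count of 0 allows 3 counts. Doublets were not removed in the values reported; Scrublet in scanpy 1.11.5 called 77 barcodes (3.13%), 30 of them in the lines, and their removal was an alternative. Thinning used seed 0. The scripts were tested on simulated data. With 1 library per group no test was possible. Alternatives varied the marker share, minimum counts, doublets, Leiden clusters (igraph 0.11.9; 2000 variable genes without the members, 20 components, 15 neighbours, resolution 0.1), totals, thinning, pseudocount and the treatment of shared reads. Named genes were the members, genes of 5 fixed lists and the 5 genes nearest to CAV1 and to CAV2, plus the markers of the rule and of its check. The members and lists were chosen with earlier results of these data known.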

Additional observations from a re-analysis of the deposited data

Results flagged for a closer look

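CAV1 was also high in barcodes that belonged to no line. In the 243 barcodes of at least 1000 counts without a line it stood at 2440.4 CPM (2365–2518), and 84.4% of them had a count. Of these barcodes 208 had mixed markers, 46.5% of their marker counts came from RARRES2 and TMEM100, and 136 fell in the Leiden cluster that held 468 of the 473 RARRES2-high cells. In the 333 barcodes under 1000 counts, with a median of 264 counts, CAV1 stood at 2173.5 CPM (1907–2467), and RARRES2 and TMEM100 made up 62.7% of their marker counts. These barcodes were used in no comparison, and what they hold was not tested.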

How the results depend on the processing

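Alternatives were run for the 5 members and not for the other gene lists. No level ratio of a member that counting error separated changed direction under an alternative; the order of RARRES2-high and SK-OV-3-like cells in the downstream CAV1 share did. The lines' order for CAV1 was kept throughout: the RARRES2-high to SK-OV-3-like ratio ran from 3.28 to 3.61, the RARRES2-high to FOLR1-high ratio from 28.0 to 44.1 and the SK-OV-3-like to FOLR1-high ratio from 7.82 to 13.3, and where a value left its counting interval the cause was not tested. These 3 ratios were 3.31, 44.1 and 13.3 at 2000 counts per cell, 3.58, 28.0 and 7.82 without mitochondrial and ribosomal protein genes in the totals, and 3.61, 40.4 and 11.2 at a marker share of 90%. The last pair was 29 and 8.58 at a share of 60%, the first pair 3.57 and 38.1 without called doublets, and the first ratio 3.28 with lines from Leiden clusters. Over FOLR1-high cells the RARRES2-high ratio of CAV2 was 11.7 at 2000 counts and 7.43 with the reduced totals, that of CAVIN1 was 1.99 with the reduced totals, and that of CAVIN3 was 5.69 at a share of 90% and 4.06 with the reduced totals. At 2000 counts the ratios of DEFB1-or-CD44-only to CXCL14 cells were 4.84 for CAV1, 3.39 for CAVIN1 and 3.61 for CAVIN3; for CAVIN2 the inverse ran from 24.8 to 60.6 over its settings. The number of members past the fold limit stayed the same with 1 CPM added and with at least 50 CPM required, the only settings tried for it. CAV2 lay close to the limit between RARRES2-high and SK-OV-3-like cells. Its CPM ratio there, 2.05, ran from 1.98 to 2.18 over the other alternatives, for which that number was not taken.

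Shares of cells with a count depend on depth by construction. In SK-OV-3-like, RARRES2-high and FOLR1-high cells CAV1 was counted in 60.1%, 91.2% and 3.68% at 2 or more counts, in 63.9%, 89.2% and 7.84% after thinning to 1000, and in 94.0%, 97.7% and 29.3% without thinning; CAV1 with CAV2 was found in 67.4%, 86.9% and 13.5% without thinning. In the same order the downstream CAV1 share was 32.8%, 21.3% and 61.1% in cells with 3 to 5 counts, 46.2%, 57.1% and 59.3% in cells with a single count in 1 transcript, and, for the first 2 lines, 9.74% and 9.71% in cells with 1 transcript only (at least 0.99 of the cell's CAV1 counts in 1 transcript) and 38.5% and 42.3% in cells with a single count. It was 35.4% in RARRES2-high cells at a marker share of 90%. The share of ENST00000341049 was 89.5%, 86.2% and 42.4% in cells with 1 transcript only, 41.3%, 34.6% and 34.2% in cells with a single count, and 60.3%, 62.7% and 31.1% in cells with 3 to 5 counts. Settings on 3 to 5 counts, on single counts in 1 transcript, on the states without doublets, among deeper cells or by CD44 alone, and single-gene shares of cells without thinning were added after the data were seen.

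The number of genes past the fold limit, 1322 in RARRES2-high over FOLR1-high cells, was 2025 with 1 CPM added and 718 with at least 50 CPM required; 237 in DEFB1-or-CD44-only over CXCL14 cells became 607 and 141, and 134 in the other direction became 286 and 62. The numbers of genes with a transcript share difference of 10 points, 542, 628, 540 and 175, were 305, 351, 312 and 63 with at least 100 counts, where fewer genes are tested. No paired analysis was possible because a line comes from 1 library and nothing here was tested. Depth limits CAV2 in CXCL14 cells (16 counts) and CAVIN2 in DEFB1-or-CD44-only cells (6 counts), and 1 library cannot tell a difference between lines from one between cultures.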

Other observations

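The 205 FOLR1-high cells with none of CXCL14, DEFB1 and CD44 stood between the other cells of the line for all 5 members. CAV1 was at 113 CPM (94.4–135), CAV2 at 54.0 (41.2–69.4), CAVIN1 at 127 (107–150), CAVIN2 at 59.3 (45.9–75.5) and CAVIN3 at 103 (85.4–124). These cells had a median of 4801 counts, against 4972 in CXCL14 and 6040 in DEFB1-or-CD44-only cells. The share of all genes that lie between the states was not counted, and whether these cells mix both states was not tested.

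Levels were also taken in 3 equal parts of the cells of a line by depth. From the shallowest to the deepest part CAV1 stood at 1232, 1233 and 1166 CPM in SK-OV-3-like cells and at 3937, 4439 and 4014 CPM in RARRES2-high cells. In FOLR1-high cells it stood at 99.4, 89.6 and 142 CPM and CAV2 at 39.0, 44.1 and 70.4 CPM, with the deepest part highest for both, while CAVIN2 stood at 57.9, 71.3 and 46.6 CPM. The DEFB1-or-CD44-only cells were deeper than the CXCL14 cells, with medians of 6040 and 4972 counts.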
